A study of Mus musculus with 8 samples.

Results

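Genes of mitochondrial protein import and of the matrix chaperones and proteases were measured in mouse muscle that received a p21 plasmid and in muscle that received a control plasmid. The members were all probes whose platform gene symbol begins with Tomm, Timm or Chchd followed by a digit, together with Hspd1, Hspe1, Hspa9, Grpel1, Grpel2, Clpp and Clpx. They came to 54 of 25697 probes and 37 of 16593 named genes, and Lonp1, which the same rule names, was not analysed here. The samples were tibialis anterior muscles of male C57BL/6 mice aged 8 weeks, with 4 arrays per group. The p21 group had been transfected 7 days earlier with a plasmid for p21, a cyclin-dependent kinase inhibitor, and the control group with a control plasmid. Both groups thus share transfection itself, and neither the promoter of the plasmid nor the share of fibers that took it up is given in the sources used here. Muscles of both legs were taken, but the labels do not say which samples share a mouse, so p-values measure only how far these samples vary, and that variation may be technical.

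Nearly all mitochondrial proteins are encoded in the nucleus, made in the cytosol and imported. The TOM complex of the outer membrane holds the receptors and the general pore, the TIM complexes of the inner membrane pass precursors into the matrix or insert carriers, and small Tim chaperones guide hydrophobic precursors between the membranes. In the matrix, mortalin pulls the chain in, the chaperonin folds it, and the Lon and ClpXP proteases remove damaged proteins. In muscle this machinery serves a large mitochondrial mass that makes ATP for contraction.

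Values are log2 intensities, which ran from 8.13 to 15.27 on every array, and changes are p21 minus control with a standard error from limma. A probe was called changed at a Benjamini-Hochberg adjusted p under 0.05 over all probes. Of the 54 import and chaperone probes, 1 was called lower in p21 muscles and 0 higher, which is 1.85% lower against 4.35% of all probes called lower and 3.68% called higher. At an unadjusted p under 0.05, 20 of the 54 were lower and 1 was higher, where 12.3% and 10.2% of all probes were. When the replicate number was entered as a block, 10 of the 54 probes were called lower and 0 higher, or 18.5% against 6.33% of all probes lower and 6.07% higher. The labels do not say that equal numbers mark pairs, and the main fit did not use the numbers. The block, which reads them as pairs, was an alternative. Equal-numbered arrays deviated together, with correlations of 0.181 to 0.483, but p21 replicates 2 and 4 correlated more with control replicates 4 and 3. The called count therefore rests on whether the block is used, while no probe of these genes was called higher in either fit.

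The measured changes were small and mostly on the low side. The change was under 0 in 42 of the 54 probes, or 77.8%, against 53.0% of all probes, and it ranged from −0.36 to 0.12. The median was −0.12, against −0.00362 over all probes. In 14 probes every p21 array read below every control array, which is 25.9% of these probes where 9.34% of all probes did so, and in 0 probes every p21 array read above, where 7.41% of all probes did. These counts describe probes that include several for the same gene, since 11 of the 37 genes had more than 1 probe. The plot of changes by gene shows each probe with its standard error.

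**Figure D1:**
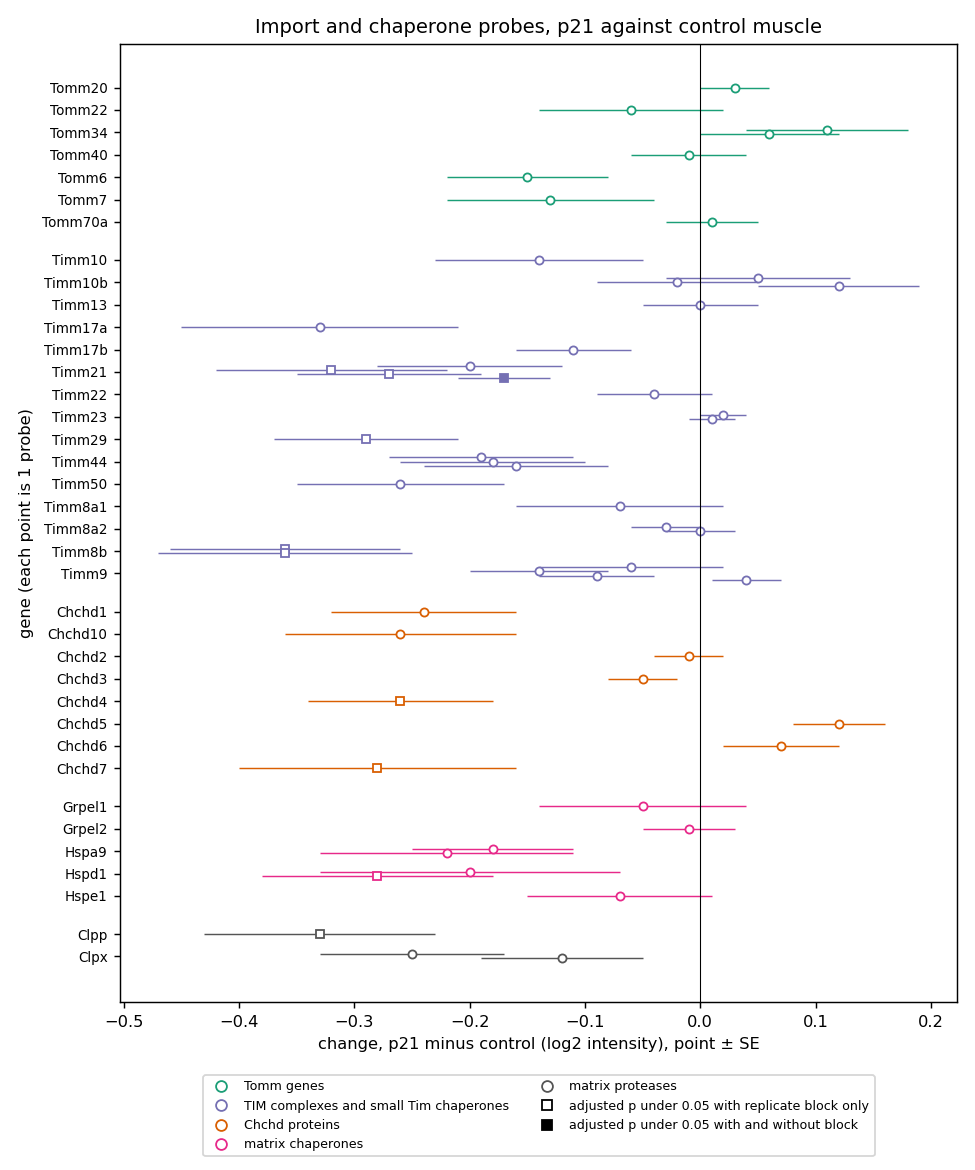
Change of each import and chaperone probe, p21 minus control (x axis, log2 intensity, points with standard error, n = 4 arrays per group), by gene (y axis) and coloured by role. All but 12 of the 54 points lie under 0, squares mark the 10 probes called with the replicate block, and the filled square is the Timm21 probe called with and without it.

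Brightness limits what could be seen. The probe values have a floor near 8.13, and 10 of the 54 probes had a mean over the 8 arrays at or under that of the median probe, 8.38. Those 10 had a median change of −0.000297, while the 44 brighter probes had a median of −0.15 and were under 0 in 37 cases, or 84.1%, against 54.0% of all brighter probes. For 7 of the 37 genes even the brightest probe was that dim, namely Timm8a2, Timm13, Timm22, Timm23, Tomm20, Chchd2 and Chchd3. Their small differences do not show stable transcript levels. Among the 44 brighter probes, 31.8% had every p21 array below every control array, against 17.0% of all brighter probes. Of all probes at or under the median probe 1.7% did. In the fit over all probes 2.27% of the 44 were called lower, against 8.57% of all brighter probes. With the block these shares were 22.7% and 12.5%. When only probes brighter than the median probe were tested, 8 of 44 were called lower and 0 higher, or 18.2% where 13.0% of all such probes were lower and 9.92% higher. On the 44 probes the 95% confidence intervals of the change ran from −0.61 at the lowest to 0.28 at the highest, 20 lay wholly under 0, 23 held 0, and that of Chchd5 lay over 0.

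**Figure D2:**
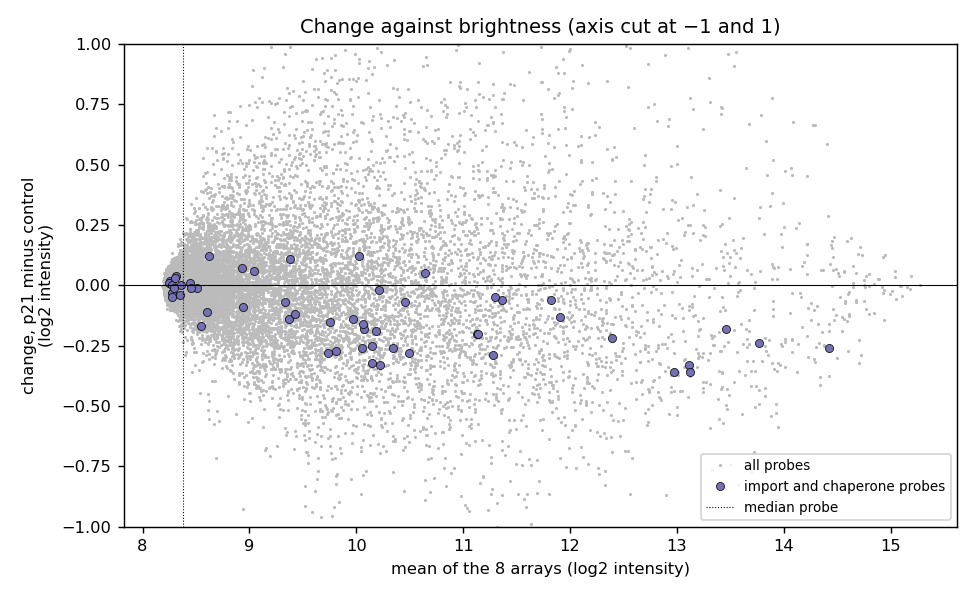
Change, p21 minus control (y axis, log2 intensity), against the mean of the 8 arrays (x axis, log2 intensity) for all probes in grey and the 54 import and chaperone probes in colour, with the median probe at 8.38 as a dotted line. Import and chaperone probes left of the line sit close to 0, and most of the 44 to its right sit below 0, none lower than −0.36.

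Of the 7 Tomm genes, which are TOM subunits apart from Tomm34, no probe was called with or without the block. Of their 8 probes 4 were under 0 and 4 over it, and both Tomm34 probes were among those over 0. Tomm22, the central receptor, read 11.33, 11.27, 11.36 and 11.36 in p21 muscles, against 11.45, 11.43, 11.26 and 11.43 in control muscles. The groups overlapped, and the change was −0.06 ± 0.08, with a 95% interval from −0.23 to 0.12. Tomm7 and Tomm6, small subunits around the pore, had changes of −0.13 ± 0.09 and −0.15 ± 0.07 (limma adjusted p = 0.444 and 0.254). Tomm34, a cytosolic co-chaperone that binds precursors, had changes of 0.11 ± 0.07 and 0.06 ± 0.06 in its probes. Tomm40, the pore itself, averaged 8.51 ± 0.04 in p21 muscles and 8.51 ± 0.10 in control muscles (SD, n = 4 each), a change of −0.01 ± 0.05 whose sign turned with some arrays left out. Tomm70a, the receptor for carrier precursors, had a change of 0.01 ± 0.04, and Tomm20, the receptor for presequences, one of 0.03 ± 0.03. These 3 probes lay close to the lowest value of the table, where a change in the transcript may not have been detectable.

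Among the TIM genes, Timm21 held the single called probe. Timm21 couples the presequence translocase of the inner membrane to the TOM complex and, in yeast, to the respiratory chain. Its 4 probes all read lower in p21 muscles. The called probe, the dimmest, gave 8.51, 8.47, 8.44 and 8.44 in p21 muscles, against 8.68, 8.62, 8.66 and 8.59 in control muscles. All p21 arrays lay below all control arrays, and the change was −0.17 ± 0.04 (limma adjusted p = 0.0277). On the background-subtracted scale the change was −0.595, so that the size of the change of this dim probe depends on the scale. Leaving out control replicate 1, 2 or 3, or p21 replicate 3 or 4, ended the call, with adjusted p up to 0.0987. The brightest Timm21 probe gave 11.00, 11.00, 11.10 and 11.01 in p21 muscles, against 11.34, 11.20, 11.15 and 11.20 in control muscles. Here too the groups did not overlap, and the change was −0.20 ± 0.08 (adjusted p = 0.16, and 0.173 with the block). The second and the third Timm21 probe had changes of −0.32 ± 0.10 (adjusted p = 0.0705) and −0.27 ± 0.08 (0.0636), called with the block at 0.0212 and 0.0319. Separate probes of Timm21 thus gave the same direction but not the same call.

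**Figure D3:**
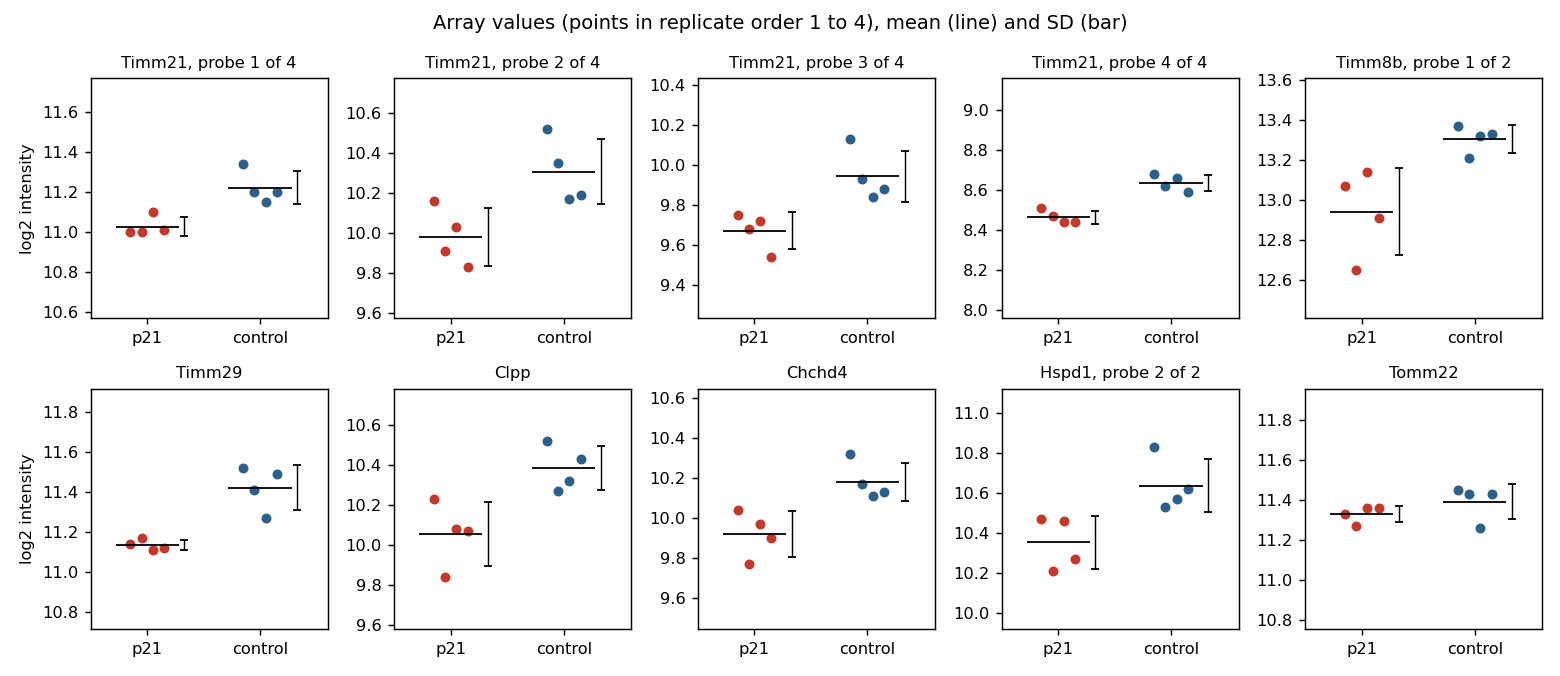
Log2 intensity (y axis) on each array for 10 probes, with p21 muscles left of control muscles, the group mean as a line and the SD as a bar (n = 4 each), with the same span of log2 values in every panel. In each panel but Tomm22 all p21 points lie below all control points, and Tomm22 overlaps. The panels were picked and are not typical, since only 14 of the 54 import and chaperone probes had no overlap. Hspd1 is shown by its dimmer probe, and its brighter probe, not shown, overlapped.

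The small Tim chaperone Timm8b, which escorts inner membrane precursors, was close to the threshold in both of its probes. Its brighter probe gave 13.07, 12.65, 13.14 and 12.91 in p21 muscles, against 13.37, 13.21, 13.32 and 13.33 in control muscles. The groups did not overlap, p21 replicate 2 was the lowest, and the change was −0.36 ± 0.10 or 1.29-fold lower (limma adjusted p = 0.0502, and 0.0187 with the block). The other Timm8b probe also had a change of −0.36, with an SE of 0.11 (adjusted p = 0.0763, and 0.0392 with the block). Without p21 replicate 2 the brighter probe had a change of −0.266, and it was then called (adjusted p = 0.0433), while the other had one of −0.241. Timm8b, Timm29 and Chchd7 were named after their values were seen. Other small Tim genes were not called. Timm8a1 had a change of −0.07 ± 0.09 and Timm10 one of −0.14 ± 0.09, while the 4 Timm9 probes ranged from −0.14 to 0.04 and the 3 Timm10b probes from −0.02 to 0.12. Timm13, the partner of Tim8 proteins, and Timm8a2 were dim on all their probes.

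Timm29, which in human cells belongs to the carrier translocase, read 11.14, 11.17, 11.11 and 11.12 in p21 muscles, against 11.52, 11.41, 11.27 and 11.49 in control muscles. The p21 arrays lay close together and below every control array, with a change of −0.29 ± 0.08 (limma adjusted p = 0.0533, and 0.0458 with the block). Timm22, the channel of the same translocase, was dim, with a change of −0.04 ± 0.05.

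In the presequence translocase, Timm50, which receives chains from the TOM complex, read 10.28, 9.95, 10.38 and 10.23 in p21 muscles, against 10.45, 10.45, 10.46 and 10.50 in control muscles. All p21 arrays were below all control arrays, and the change of −0.26 ± 0.09 missed the threshold (limma adjusted p = 0.122, and 0.0862 with the block). Without p21 replicate 2, its lowest array, the change of Timm50 was −0.169. Timm44, which tethers mortalin to the channel, had 3 probes with changes of −0.19 ± 0.08, −0.18 ± 0.08 and −0.16 ± 0.08. Its brightest probe gave 10.13, 10.00, 10.10 and 10.11 in p21 muscles, against 10.32, 10.27, 10.11 and 10.40 in control muscles, with an overlap. Timm17a, a partner of the channel protein, had a change of −0.33 ± 0.12 (adjusted p = 0.118), with p21 replicate 2 lowest at 12.60. Its paralog Timm17b had a change of −0.11 ± 0.05 on a much dimmer probe. Both probes of Timm23, the channel protein, lay near the floor, with changes of 0.02 ± 0.02 and 0.01 ± 0.02.

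The Chchd genes encode proteins with paired cysteine motifs, most of which enter the intermembrane space by oxidative folding. Chchd4, the oxidoreductase that drives this route, read 10.04, 9.77, 9.97 and 9.90 in p21 muscles, against 10.32, 10.17, 10.11 and 10.13 in control muscles. The groups did not overlap, and the change was −0.26 ± 0.08 (limma adjusted p = 0.0732, and 0.0424 with the block). Chchd7 read 9.77, 9.35, 9.69 and 9.61 in p21 muscles, against 10.20, 9.81, 9.79 and 9.73 in control muscles. Its groups overlapped, control replicate 1 was the highest, and the change was −0.28 ± 0.12 (adjusted p = 0.17, and 0.0488 with the block). Without control replicate 1 the Chchd7 change was −0.178. Chchd10, which is abundant in muscle, and Chchd1, a protein of the small mitochondrial ribosomal subunit, had changes of −0.26 ± 0.10 and −0.24 ± 0.08 (adjusted p = 0.126 and 0.104). Chchd5 had the highest change of all 54 probes, 0.12 ± 0.04, at a low level and with adjusted p = 0.117. Chchd3 and Chchd6, subunits of the complex that shapes cristae, had changes of −0.05 ± 0.03 on a dim probe and 0.07 ± 0.05, and Chchd2 was dim.

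Among the matrix chaperones no probe was called without the block. Hspd1, the ring of the chaperonin, was measured by a brighter probe that read 11.16, 10.62, 11.23 and 11.16 in p21 muscles, against 11.29, 11.18, 11.20 and 11.30 in control muscles. The p21 replicate 2 array stood alone at the bottom while the other arrays overlapped, and the change was −0.20 ± 0.13 (limma adjusted p = 0.404), or −0.059 without that array. Its dimmer probe read 10.47, 10.21, 10.46 and 10.27 in p21 muscles, against 10.83, 10.53, 10.57 and 10.62 in control muscles, without overlap, and had a change of −0.28 ± 0.10 (adjusted p = 0.0924, and 0.0422 with the block). Hspe1, the lid of the chaperonin, read 9.26, 9.22, 9.29 and 9.42 in p21 muscles, against 9.51, 9.44, 9.25 and 9.27 in control muscles, with a change of −0.07 ± 0.08 and a 95% interval from −0.23 to 0.10. Hspa9, which encodes mortalin, had changes of −0.18 ± 0.07 and −0.22 ± 0.11 in its probes (adjusted p = 0.155 and 0.238). Grpel1 and Grpel2, which exchange the nucleotide on mortalin, had changes of −0.05 ± 0.09 and −0.01 ± 0.04. The Grpel2 probe averaged 8.45 over all arrays, close to the lowest value, where a change in the transcript may not have been detectable.

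The subunits of the ClpXP protease were not called in the limma fit over all probes. Clpp, the proteolytic chamber, read 10.23, 9.84, 10.08 and 10.07 in p21 muscles, against 10.52, 10.27, 10.32 and 10.43 in control muscles. The groups did not overlap, and the change was −0.33 ± 0.10 or 1.26-fold lower (limma adjusted p = 0.0573, and 0.0157 with the block). Clpx, the unfoldase that feeds it, read 10.11, 9.85, 10.10 and 10.02 in p21 muscles, against 10.37, 10.27, 10.18 and 10.27 in control muscles on its brighter probe. That probe had no overlap and a change of −0.25 ± 0.08 (adjusted p = 0.0822, and 0.0617 with the block), and the dimmer Clpx probe had a change of −0.12 ± 0.07. Over probes brighter than the median probe, Clpp and that brighter Clpx probe were called lower (adjusted p = 0.0366 and 0.0434).

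Hspd1 and Hspe1 are transcribed away from each other from one stretch of DNA, which is shown because the ring and the lid of the chaperonin start there. Timm8b and Sdhd, which encodes a membrane anchor of respiratory complex II, are arranged in the same way and are shown beside it. Both stretches are the bases between the starts of the divergent genes, from RefSeq on GRCm38.p6, plus strand, 5′ to 3′, at chr1:55087933-55088147 and chr9:50603850-50603900. Capitals mark matches to an ETS site (CCGGAAG) or an estrogen-related receptor half-site (AAGGTCA), on either strand.
Hspd1 and Hspe1: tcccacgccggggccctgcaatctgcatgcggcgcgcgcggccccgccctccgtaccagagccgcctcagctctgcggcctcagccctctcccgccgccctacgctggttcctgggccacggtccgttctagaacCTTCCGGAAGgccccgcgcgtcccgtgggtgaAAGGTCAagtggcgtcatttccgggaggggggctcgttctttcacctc
Timm8b and Sdhd: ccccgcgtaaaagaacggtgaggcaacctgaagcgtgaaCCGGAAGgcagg

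The chaperonin stretch of 215 bases holds ETS matches on both strands that overlap each other, and further toward Hspe1 a receptor half-site. The Timm8b stretch of 51 bases holds 1 ETS match. Over the 250 bases before each start, 13 of the 31 import and chaperone genes with a promoter in the table held the ETS letters, or 41.9%, against 11.0% of 13336 measured genes. The receptor half-site was in 4 of the 31, or 12.9%, against 4.05%. Matches in the stretch shared by Hspd1 and Hspe1 count for both genes in these numbers. The motifs were chosen after the changes were known, and a match is a description of the letters only. Transcripts that share such a stretch read as follows: Sdhd had a change of −0.21 ± 0.10 (limma adjusted p = 0.254) beside the −0.36 of Timm8b, and Tmem43, divergent from Chchd4, had one of 0.13 ± 0.08 beside the −0.26 of Chchd4. The other measured neighbors were Arfip2, with 0.21 ± 0.09 beside the 0.05 of Timm10b, Pqbp1, with 0.02 ± 0.03 beside the −0.11 of Timm17b, and Parg, with −0.004 ± 0.025 beside the 0.02 of Timm23. Of the 31 genes 11 had a divergent neighbor that starts within 500 bases. The share of all measured genes with such a neighbor was not counted, so the number is a description only.

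By array, p21 replicate 2 stood lowest. Over the 44 brighter import and chaperone probes, the median deviation from the control mean was −0.0742, −0.215, −0.122 and −0.175 in p21 replicates 1 to 4, against 0.0658, −0.0135, −0.0511 and −0.00775 in control replicates 1 to 4. The p21 replicate 2 array was the lowest of all 8 in 21 of the 44 probes, or 47.7%, against 27.0% of all brighter probes, and control replicate 1 was the highest in 30. All p21 medians lay below all control medians. The same held over all brighter probes, at smaller size. Their medians were −0.0117, −0.0159, −0.0205 and −0.0214 in p21 replicates 1 to 4. In control replicates 1 to 4 they were 0.00779, −0.00286, −0.0102 and −0.002. Without p21 replicate 2 the median change of the 54 probes was −0.078 and 3 probes were called lower, where 3.53% of all probes were, and without control replicate 1 the median was −0.081 and 0 probes were called. The last count stands where 0.49% of all probes were called lower. Without control replicate 2 or 3 or p21 replicate 4 the count was also 0, where 0.568%, 1.83% and 0.113% of all probes were called lower, and it was 4, or 7.41%, without p21 replicate 1, where 4.56% were.

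**Figure D4:**
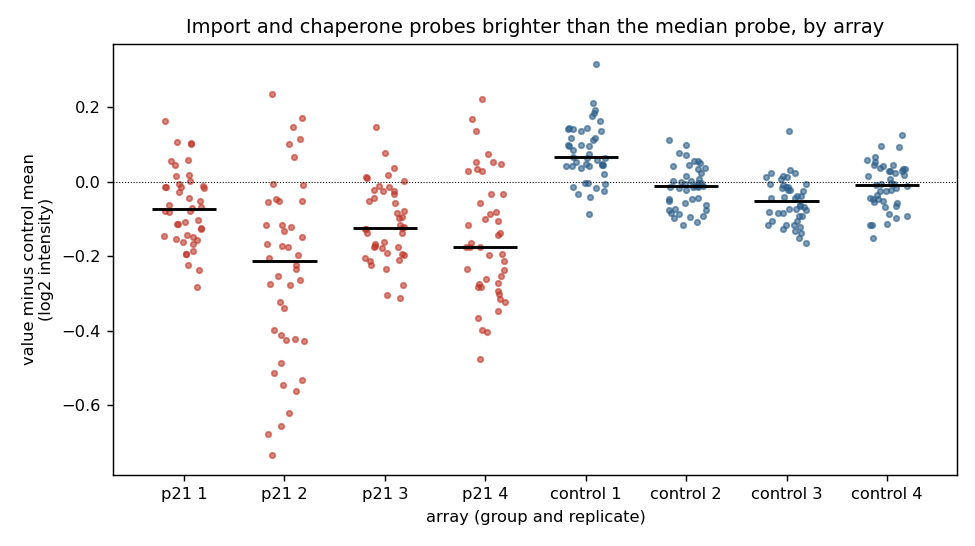
Value minus control mean (y axis, log2 intensity) on each array (x axis, p21 replicates left of control replicates) for the 44 import and chaperone probes brighter than the median probe, with the median as a line. The p21 medians lie between −0.215 and −0.0742, below the control medians between −0.0511 and 0.0658, and p21 replicate 2 is the lowest. Over all brighter probes, not shown, the p21 medians also lay below the control medians, the lowest at −0.0214.

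Other genes of the pathway were taken from lists, each gene by its brightest probe. Of 19 further import and assembly genes, 3 were called lower and 1 higher, where 4.79% of all genes were lower and 4.24% higher. Mipep, which trims imported presequences, had the largest fall of the 3, with 10.77, 10.34, 10.73 and 10.59 in p21 muscles, against 11.15, 11.10, 11.10 and 11.02 in control muscles. The groups were apart, with a change of −0.48 ± 0.10 (limma adjusted p = 0.0203). Aifm1, which anchors the oxidoreductase Chchd4 at the inner membrane, fell by 0.33 on the log2 scale (SE 0.08), and Dnajc19, a co-chaperone of the import motor, by 0.31 (SE 0.08). Mtx2, which encodes an outer membrane protein of beta-barrel assembly, went the other way. It read 14.33, 14.54, 14.20 and 14.18 in p21 muscles, against 13.76, 13.85, 13.83 and 13.97 in control muscles. All p21 arrays were above all control arrays, and Mtx2 rose by 0.46 ± 0.08 (adjusted p = 0.014).

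Of 20 other mitochondrial chaperone and quality control genes, 5 were called lower (7 with the block) and 0 higher. Of all genes 4.79% were lower (6.96% with the block) and 4.24% higher. Without control replicate 1, control replicate 2 or p21 replicate 4, the count called lower over this list and the import and assembly list was 0, against 8. It was 2 without control replicate 3 and 4 without control replicate 4. Calls fell over all probes too, where 4.35% were lower with all arrays. That share was 0.49%, 0.568% and 0.113% without control replicate 1, control replicate 2 and p21 replicate 4. Without control replicates 3 and 4 it was 1.83% and 2.28%. Pink1, the kinase that marks damaged mitochondria and is itself turned over through import, read 11.73, 10.86, 11.53 and 11.20 in p21 muscles, against 12.36, 11.96, 11.96 and 11.94 in control muscles. The groups were apart, and Pink1 had a change of −0.72 ± 0.17 (limma adjusted p = 0.0288). The inner membrane protease Oma1, the factor Atf5, which acts in the mitochondrial unfolded protein response, and the matrix isomerase Ppif had changes of −0.38 ± 0.09, −0.48 ± 0.12 and −0.48 ± 0.12. The fifth was Dnaja3, a matrix co-chaperone (−0.29 ± 0.07). Of 12 genes listed as cytosolic chaperones, 0 were called in either direction by limma, and 1 was called higher with the block. At an unadjusted p under 0.05, 1 was lower and 2 were higher. Over all 16593 genes, 2205 were lower and 1870 higher at that p, and 7.11% were called higher with the block. Hspa8, the main cytosolic Hsp70 of unstressed cells, averaged 14.45 ± 0.06 in p21 muscles and 14.45 ± 0.04 in control muscles (SD, n = 4 each).

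The import and chaperone genes were also set beside other mitochondrial gene families. By brightest probe 0 of the 37 were called, where 4.79% of all genes were lower and 4.24% higher, the median change was −0.07, and with the block 5 were called lower, where 6.96% of all genes were lower and 7.11% higher. Among 40 genes named Nduf, subunits and assembly factors of respiratory complex I, 11 were called lower (15 with the block) and the median was −0.22, and among 76 mitochondrial ribosomal protein genes 9 were lower (16 with the block) and the median was −0.17. Over probes above the median probe, the medians were −0.14 for 30 import and chaperone genes, −0.23 for 38 Nduf genes and −0.19 for 68 ribosomal genes. The difference between these families was not tested. Of each family, Ndufb11, Ndufs7, Ndufa12 and Ndufa1 had changes of −0.41 ± 0.06, −0.49 ± 0.07, −0.47 ± 0.08 and −0.35 ± 0.07, and Mrps21, Mrpl42, Mrpl51 and Mrps28 had changes of −0.47 ± 0.11, −0.41 ± 0.10, −0.26 ± 0.06 and −0.47 ± 0.11.

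**Figure D5:**
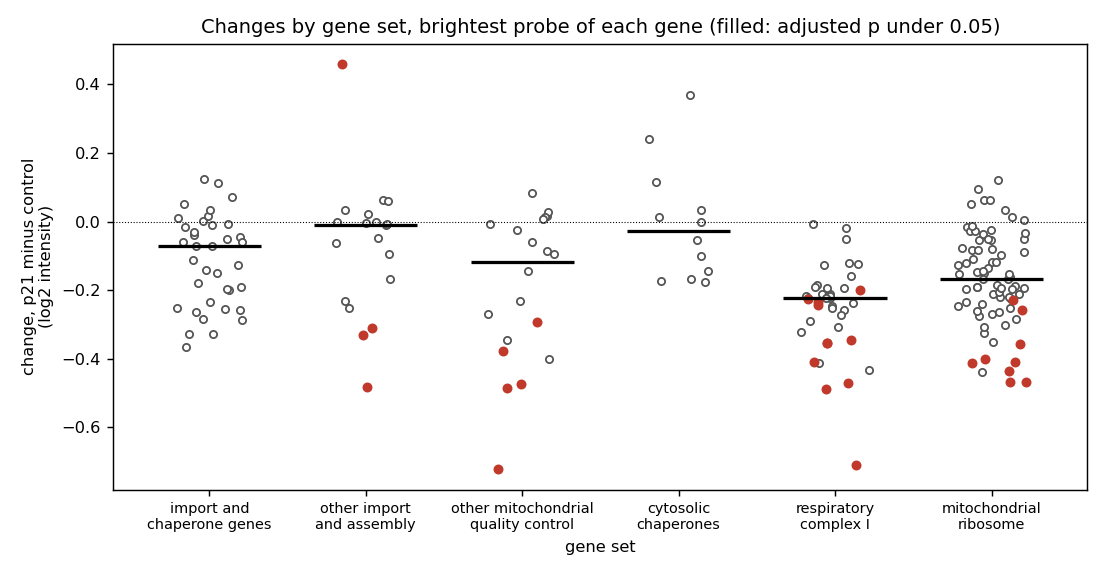
Change, p21 minus control (y axis, log2 intensity), for the brightest probe of each gene in 6 gene sets (x axis), with the set median as a line and filled points for adjusted p under 0.05. The import and chaperone genes have a median of −0.07 and 0 filled points, and the complex I set a median of −0.22 with 11.

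Cdkn1a and markers of muscle fibers and other cells were read as a check of the arrays. Cdkn1a, which encodes p21, was higher on all p21 arrays in its 3 probes, by 1.43 ± 0.12, 1.21 ± 0.11 and 0.99 ± 0.10. How much of this signal came from the plasmid and how much from the muscle's own gene was not tested. Over all genes by brightest probe, 4.79% were called lower and 4.24% higher, or 6.96% and 7.11% with the block. Of those genes 53.2% had a change under 0, and in 10.3% every p21 array read below every control array. Of 10 fiber markers 1, Myh4, was called lower and 0 higher. In 8 the change was under 0, and in 4 every p21 array read below every control array. The means of the fiber list were 14.47 to 14.62 in p21 muscles, against 14.63 to 14.67 in control muscles, without overlap and lowest in p21 replicate 2. Ckm and Acta1, near the top of the scale, averaged 15.02 ± 0.03 and 15.07 ± 0.02 in p21 muscles and 15.08 ± 0.01 and 15.01 ± 0.09 in control muscles (SD, n = 4 each). Markers of other cells moved with the groups. Of 16 macrophage markers 10 were called higher, with list means of 10.80 to 11.24 in p21 muscles, against 9.73 to 10.40 in control muscles, though Adgre1 missed the threshold (0.84 ± 0.25, limma adjusted p = 0.0621). Of 12 endothelial markers 5 were called lower (8 with the block), with list means of 9.83 to 9.92 in p21 muscles, against 10.04 to 10.21 in control muscles, and Pecam1 and Cdh5 had changes of −0.22 ± 0.10 and −0.26 ± 0.08. In the fibroblast, lymphocyte, adipocyte and nerve lists 1 of 9, 1 of 11, 0 of 6 and 0 of 5 were called higher and 0 lower, and with the block 3, 5, 0 and 0 were higher and 2 nerve markers lower. The part of any of these lists, fiber markers included, in the import and chaperone values was not tested. In whole muscle, fewer cells of a type and less RNA per cell cannot be told apart.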

How the data were processed

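The authors deposited log2 intensities for 8 single-colour Illumina arrays of biotin-labelled RNA, per the labels' protocols. How background and normalization were handled is not given in the sources used here. Sorted values coincided across arrays to within 0.00073, as quantile normalization leaves them, which removes differences in total RNA. No detection calls were used. Gene names came from the platform annotation.

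The groups were compared with limma 3.58.1 (R 4.3.3), using lmFit and a trended eBayes over 25697 probes, two-sided. A gene was represented by its brightest probe. The number of arrays limits the precision. On simulated data 78 of 100 probes changed by 0.5 and 94 of 100 changed by 1 were recovered, with 10 false calls. The changed probes were all brighter than the median probe. The import and chaperone changes, from −0.36 to 0.12, were smaller. Recovery of changes of that size, or in dim probes, was not simulated.

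The members, lists and tests were chosen with earlier results of these data known. Member genes with a called probe, 12 well-known members whatever their values, and up to 4 genes per direction of other lists were to be named. For same-numbered arrays, deviations from the group means had correlations of 0.483, 0.264, 0.212 and 0.181. All exceeded the minimum of 0.1 for pairing, though p21 replicates 2 and 4 correlated more with control replicates 4 and 3 (0.297 and 0.448). Alternatives were the replicate block, leaving out each array, brighter probes, eBayes untrended or robust, median centring, a background-subtracted scale with an offset of 16 and averaging a gene's probes. Promoter letters came from RefSeq.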

Additional observations from a re-analysis of the deposited data

Results flagged for a closer look

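Of 108 groups of 4 arrays tested, 2 for each import and chaperone probe, 11 held an array whose gap to its nearest neighbor took a share of the group's range above Dixon's 95% critical value, and chance gives about 1 in 20. The gap share was 0.878 for p21 replicate 2 in the brighter Hspd1 probe, at 10.62 where the other p21 arrays read 11.16 to 11.23. For p21 replicate 1, the highest of its group, it was 0.897 in Timm22, 0.897 in Timm8a1, 0.889 in the second brightest Timm9 probe and 0.843 in Tomm6. For p21 replicate 3 it was 0.863 in the brightest Timm21 probe, at 11.10 against 11.00 to 11.01. In control muscles it was 0.889 for replicate 4 in Timm22 and 0.863 for replicate 4 in Timm50, the highest of their groups. It was 0.873 for control replicate 3 in Tomm22, the lowest at 11.26 against 11.43 to 11.45. For control replicate 1, the highest of its group, it was 0.842 in Tomm7 and 0.830 in Chchd7, where it read 10.20 against 9.73 to 9.81.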

How the results depend on the processing

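The count of import and chaperone probes called lower was 1 in the limma fit. With the replicate block it was 10, or 18.5% against 6.33% of all probes. Over probes brighter than the median probe it was 8, or 18.2% against 13.0%. It was 4 with robust eBayes, or 7.41% against 4.63%. On the background-subtracted scale it was 2, or 3.7% against 4.25%, and with untrended eBayes 3, or 5.56% against 4.44%. The count ranged from 0 to 4 with 1 array left out, and median centring did not move it. Without control replicate 4 and without p21 replicate 3 it was 1, or 1.85%, where 2.28% and 3.9% of all probes were called lower. The count of genes by brightest probe, 0, was 5 with the replicate block, 5 over brighter probes, 3 with robust eBayes, 2 with untrended eBayes, 1 on the background-subtracted scale, 1 when a gene's probes were averaged, and 0 to 2 when 1 array was omitted. No probe of these genes was called higher under any of these settings. The median change of the 54 probes lay between −0.135 and −0.078 when 1 array was omitted and was −0.194 on the background-subtracted scale and −0.153 over brighter probes. Over all probes the count was 3186 with the replicate block and ranged from 159 to 2162 with an array left out, against 2064. The other pathway genes called lower numbered 0 to 10 with an array left out, against 8, and Mtx2 stayed the single one called higher. Of all probes, 0.113% to 4.56% were called lower with an array left out, against 4.35%. The change of Tomm40 lay between −0.043 and 0.039 when 1 array was omitted, over 0 without control replicate 3, p21 replicate 2 or p21 replicate 4, and was never called. Fewer arrays leave fewer degrees of freedom; the cause of the other shifts was not tested. Of 277 values of 20 named probes under alternatives, 242 kept direction and side of the threshold, 27 were newly called, 5 were no longer called (all Timm21) and the 3 of Tomm40 turned. Among the import and chaperone probes the block changed no call beyond those given beside their results.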
